A study of Rattus norvegicus with 20 samples.

Results

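The 10 genes described here are markers of astrocytes in the rat medial prefrontal cortex (mPFC): Gfap, Aqp4, Slc1a2, Slc1a3, Aldh1l1, Gja1, Gjb6, S100b, Glul and Aldoc. They were found by symbol in the deposited table of 31038 genes, and all 10 were among the 16605 genes kept, which had 5 or more reads in 10 or more rats. Poly(A) RNA was sequenced from the mPFC of 20 male Sprague-Dawley rats, with 1 library per rat. In 10 rats LSD, a psychedelic drug that acts at serotonin receptors, was injected intraperitoneally at 0.16 mg/kg every other day over 90 days, and the 10 control rats received sterile saline on the same schedule. The labels give 3 weeks between the end of treatment and tissue collection and an age of 6 to 8 weeks when treatment began. The study's methods give other figures for both, which apply equally to the 2 groups. The tissue came from one hemisphere and was not sorted, so each value is a sum over all its cells, and fewer astrocytes cannot be told apart from less RNA per astrocyte.

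Astrocytes take up glutamate and potassium released by active neurons, turn glutamate into glutamine, supply lactate made by glycolysis and line blood vessels with endfeet rich in water channels. They are joined to each other by gap junctions. Several of the genes used to mark them are shared with other cells: Glul and S100b are also found in oligodendrocytes. When astrocytes become reactive after injury or inflammation, Gfap and other intermediate filament genes typically increase.

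The reads assigned to genes numbered 16346629 to 25552681 per rat with LSD and 11098076 to 24201351 with saline. Saline rats 4 and 9 were the least similar to the other rats over all kept genes, with a mean Spearman's rho of 0.986 and 0.985, and counts given below were also obtained without both. LSD rat 3 came next (0.987) and was kept in this check, so only controls were removed. No batch, lane or date is given in the labels. All 16 neuron markers examined were kept, with a summed level of 12564 to 15224 with LSD and 12429 to 16681 with saline. Levels are given throughout as RPM, reads scaled to the size of each library and normalised with TMM factors. Transcript lengths were not used here, so levels are compared between rats and not between genes.

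Promoter sequences are shown for Slc1a2 and Aldoc, the 2 markers that passed the test in opposite directions, and for Slc1a3 and Gja1, the 2 markers whose levels followed each other most closely from rat to rat. Each window is the 250 bases before the start of the gene in RefSeq's GRCr8 annotation, the most upstream start being taken where there are several. It is given 5′ to 3′ on the strand of the gene, and capitals mark the motifs searched on both strands. These were the TATA box with the letters TATAAA, the GC box with GGGCGG, the nuclear factor I motif with TTGGC, and an E-box with CACGTG, none of which contains another.
Slc1a2: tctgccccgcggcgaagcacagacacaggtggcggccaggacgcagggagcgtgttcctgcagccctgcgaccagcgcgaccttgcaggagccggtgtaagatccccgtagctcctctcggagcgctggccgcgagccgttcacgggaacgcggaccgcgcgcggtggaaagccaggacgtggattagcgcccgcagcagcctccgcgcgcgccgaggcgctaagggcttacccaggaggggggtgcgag
Aldoc: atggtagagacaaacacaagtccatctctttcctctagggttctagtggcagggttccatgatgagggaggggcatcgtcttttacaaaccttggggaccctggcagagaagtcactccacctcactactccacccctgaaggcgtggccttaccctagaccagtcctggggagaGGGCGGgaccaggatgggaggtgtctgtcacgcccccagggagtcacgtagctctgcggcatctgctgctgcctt
Slc1a3: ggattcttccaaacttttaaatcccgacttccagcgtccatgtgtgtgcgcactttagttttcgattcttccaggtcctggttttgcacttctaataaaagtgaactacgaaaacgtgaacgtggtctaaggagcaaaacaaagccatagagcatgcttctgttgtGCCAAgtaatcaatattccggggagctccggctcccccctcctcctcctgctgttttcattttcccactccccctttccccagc
Gja1: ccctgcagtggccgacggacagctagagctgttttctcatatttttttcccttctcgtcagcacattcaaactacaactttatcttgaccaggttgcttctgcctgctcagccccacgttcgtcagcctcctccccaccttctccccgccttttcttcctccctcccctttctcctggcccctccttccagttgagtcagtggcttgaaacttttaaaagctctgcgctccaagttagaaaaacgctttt
The windows lie at chr3:109459859-109460108 on the plus strand for Slc1a2, chr10:63715294-63715543 on the plus strand for Aldoc, chr2:59557809-59558058 on the minus strand for Slc1a3 and chr20:36302314-36302563 on the plus strand for Gja1. G and C made up 71.2% of the Slc1a2 window, 58.0% of that of Aldoc, 48.0% of that of Slc1a3 and 51.2% of that of Gja1, and the median over 33465 promoter windows was 51.2%. The Aldoc window holds 1 GC box, as do 30.5% of all windows. The Slc1a3 window holds 1 nuclear factor I motif, a motif in 40.3% of all windows. The windows of Slc1a2 and Gja1 hold none of the 4 motifs. Among all 10 markers, 5 windows hold a GC box, 2 a nuclear factor I motif, and none a TATA box (12.9% of all windows) or this E-box (5.59%).

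The question addressed is whether genes that mark astrocytes differed in the mPFC after chronic LSD. Of the 10 markers, Slc1a2 was higher and Aldoc lower in LSD-treated rats, and 8 did not pass the test (edgeR, quasi-likelihood F test, adjusted by Benjamini and Hochberg's method over 16605 genes, threshold 0.05). Over all kept genes, 6.48% were called higher and 8.54% lower in LSD, so that 1 of 10 markers in each direction is close to the background. With scaling by total counts in place of TMM, 1504 genes were called higher and 858 lower, against 1076 and 1418 with TMM, and the marker counts were the same. Leaving out Saline rats 4 and 9 lowered the calls over all kept genes to 426 higher and 555 lower. The median log2 fold change of the markers was -0.10 and that of all kept genes 0.00220. Of the markers, 6 had a negative and 4 a positive log2 fold change, and over all kept genes 49.6% were negative.

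**Figure D1:**
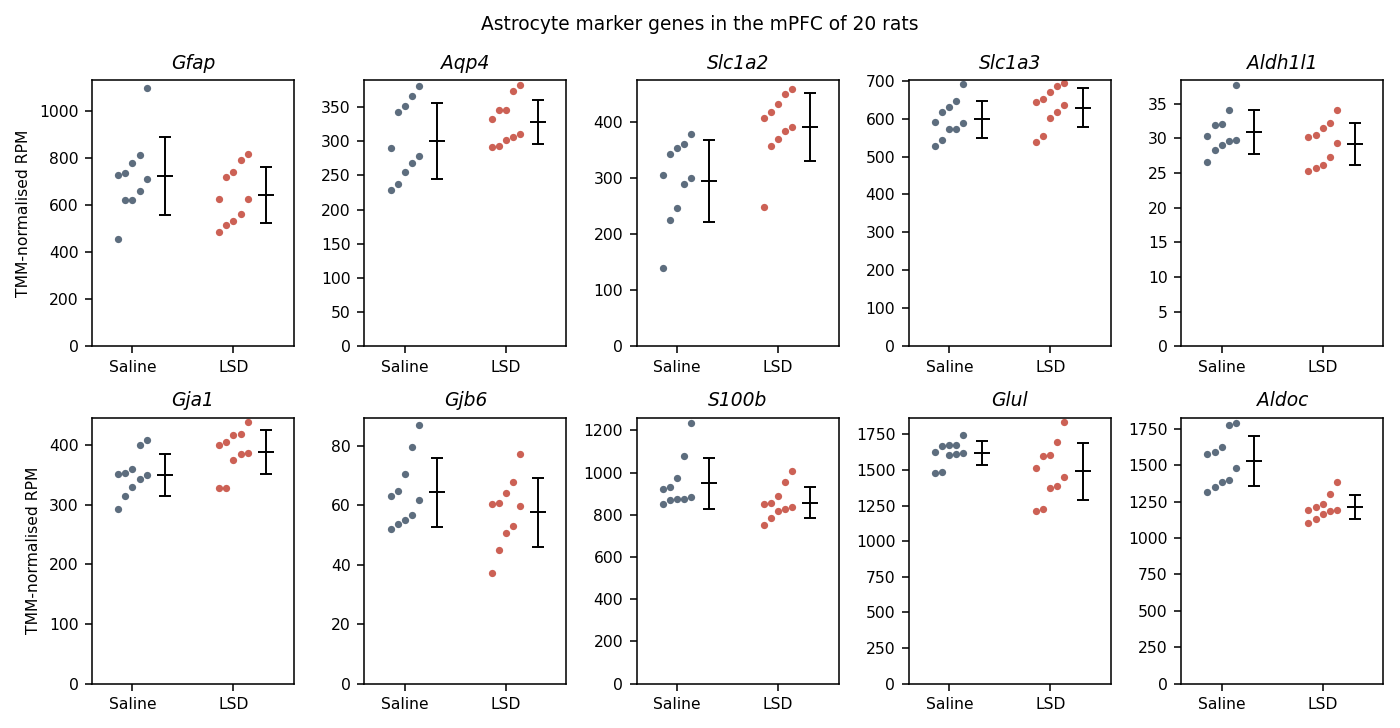
TMM-normalised RPM (y axis, from 0) of each marker gene in saline-treated and LSD-treated rats. Each point is 1 rat, and the bar beside the points is the mean with 1 SD over 10 rats. The Aldoc values of 9 LSD-treated rats lie below all controls, and 7 LSD-treated rats lie above all controls for Slc1a2. The groups overlap to varying degrees for the other genes. For Aqp4, 6 controls lie below every LSD-treated rat, and for S100b and Glul 5 LSD-treated rats lie below every control.

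Slc1a2 and Slc1a3 encode the glutamate transporters by which astrocytes clear the transmitter from synapses, and Glul encodes glutamine synthetase, which converts the glutamate taken up into glutamine. Slc1a2 measured 248 RPM in the lowest LSD-treated rat, 399 at the median and 458 in the highest, against 140, 302 and 378 in controls. The groups overlapped, but 7 LSD-treated rats were above every control and 3 controls were below every LSD-treated rat. The mean was 391 ± 60.2 RPM with LSD and 294 ± 73.4 with saline (SD, n = 10), and Slc1a2 was 1.33-fold higher (log2 fold change 0.41, SE 0.14, adjusted p = 0.0423 by edgeR). This call was close to the threshold. It was lost without Saline rats 4 and 9 (log2 fold change 0.32, adjusted p = 0.0813) and in 12 of the 20 fits that each left out 1 rat, which were those without LSD rats 1, 2, 3, 4, 5, 6, 8 and 10 and Saline rats 2, 4, 5 and 6, with values of 0.37 to 0.42 in these 12 fits.

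Slc1a3 did not pass the test. Its level was 539 to 693 RPM with LSD (median 640) and 527 to 690 with saline (median 590), nearly the same range, with a log2 fold change of 0.07 (SE 0.06, adjusted p = 0.412 by edgeR). Glul was also not called (log2 fold change -0.12, SE 0.07, adjusted p = 0.233). Its values were more scattered with LSD, from 1216 to 1837 RPM (median 1483), than with saline, from 1481 to 1743 (median 1624), and 5 LSD-treated rats were below every control while 1 was above them all. The coefficient of variation of Glul was 13.3% with LSD and 5.07% with saline. It was smaller with LSD for 6 of the 10 markers, and for 77.5% of all kept genes.

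Within each library, the log2 ratio of Slc1a2 to Slc1a3 was -0.70 ± 0.29 with LSD and -1.07 ± 0.44 with saline (SD, n = 10), a difference of 0.37 (SE 0.17; exact two-sided permutation test over 184756 splits of the rats, p = 0.0336, adjusted p = 0.0440 over 3 ratios). In 9 of 10 LSD-treated rats the ratio was above the median of controls. Without Saline rats 4 and 9 the difference was 0.25 (exact permutation test, adjusted p = 0.0949), and leaving out 1 rat at a time it passed the threshold in 10 of 20 cases, the exceptions being LSD rats 1, 3, 4, 5, 6, 8 and 10 and Saline rats 2, 5 and 9 (0.26 to 0.39). Of 23 kept genes of glutamate transport and the glutamine cycle, which include Slc1a2, Slc1a3 and Glul, 1 was called higher, Slc1a2 itself, and 2 lower. Those were Slc1a6 (log2 fold change -0.27, SE 0.07, adjusted p = 0.0171), a transporter best known from cerebellar Purkinje cells, and Slc38a7 (-0.17, SE 0.05, adjusted p = 0.0308), a glutamine transporter. None of the 23 was called without Saline rats 4 and 9 (edgeR). Slc1a1, the widespread neuronal glutamate transporter, was at -0.01 (log2 fold change, adjusted p = 0.945), with a sign that changed with scaling by total counts.

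Aldoc encodes the aldolase isoform of the brain, a glycolytic enzyme enriched in astrocytes, and it was the marker with the smallest p-value of the 10. Its level was 1103 RPM in the lowest LSD-treated rat, 1192 at the median and 1387 in the highest, against 1317, 1528 and 1792 in controls. All 10 LSD-treated rats were below the median of controls, 9 were below every control, and 7 controls were above every LSD-treated rat. The mean was 1211 ± 82.6 RPM with LSD and 1529 ± 171 with saline (SD, n = 10), and Aldoc fell by 20.8% (log2 fold change -0.34, SE 0.06, adjusted p = 0.00408 by edgeR). It was called lower in all 11 alternatives tried, with adjusted p-values from 2.63e-05 to 0.0144, and in all 20 fits without 1 rat.

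Aldoa, the aldolase isoform found in most cells, fell as well, from 2024 ± 195 to 1712 ± 148 RPM (log2 fold change -0.24, SE 0.06, adjusted p = 0.0143 by edgeR), a call lost without Saline rats 4 and 9 (-0.21, adjusted p = 0.0572). Reads that align to more than 1 of the aldolases or their pseudogenes may have been lost in the counting, whose settings are not given. The log2 ratio of Aldoc to Aldoa was -0.50 ± 0.10 with LSD and -0.41 ± 0.09 with saline, a difference of -0.09 (SE 0.04; exact two-sided permutation test, p = 0.0440, adjusted p = 0.0440 over 3 ratios), and all 10 LSD-treated rats were below the median of controls. The difference passed the threshold in only 5 of 20 cases when 1 rat was left out, those without LSD rats 2 and 9 and Saline rats 4, 6 and 7, and not without Saline rats 4 and 9 together (-0.09, exact permutation test, adjusted p = 0.0949). Among 20 genes of aldolases, glycogen and the lactate shuttle, Aldoc, Aldoa and Bsg were called lower and Slc16a7 higher, and the list's median was -0.08 on the log2 scale. Bsg encodes basigin, the chaperone of monocarboxylate transporters (log2 fold change -0.29, SE 0.06, adjusted p = 0.00807). Slc16a7 encodes the high-affinity monocarboxylate transporter of neurons (0.32, SE 0.10, adjusted p = 0.0302). Its call was lost without Saline rats 4 and 9 (0.21, adjusted p = 0.0694).

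**Figure D2:**
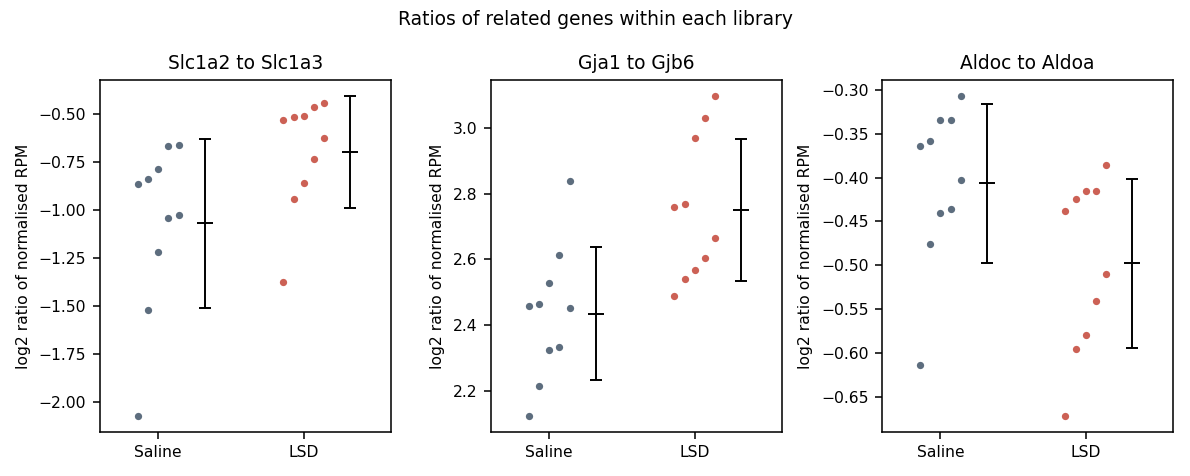
Log2 ratio of normalised RPM (y axis) of 2 related genes in each library, for Slc1a2 to Slc1a3, Gja1 to Gjb6 and Aldoc to Aldoa. Each point is 1 rat, and the bar beside the points is the mean with 1 SD over 10 rats. The ratio of Gja1 to Gjb6 is above the saline median in all 10 LSD-treated rats, and that of Aldoc to Aldoa below it.

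Gja1 and Gjb6 encode the 2 main connexins of astrocyte gap junctions. Neither passed the test alone. Gja1 ranged from 327 to 438 RPM with LSD (median 393) and from 292 to 408 with saline (median 350), with 8 LSD-treated rats above the median of controls (log2 fold change 0.15, SE 0.06, adjusted p = 0.115 by edgeR). Gjb6 ranged from 37.3 to 77.2 RPM with LSD (median 60.2) and from 52.1 to 87.1 with saline (median 62.4), with 3 LSD-treated rats below all controls (-0.16, SE 0.11, adjusted p = 0.354). The log2 ratio of Gja1 to Gjb6 was 2.49 in the lowest LSD-treated rat, 2.71 at the median and 3.10 in the highest, against 2.12, 2.45 and 2.84 in controls. The ratio was higher by 0.31 with LSD (SE 0.09; exact two-sided permutation test, p = 0.00384, adjusted p = 0.0115 over 3 ratios), above the median of controls in 10 of 10 rats, and past the threshold without any one of the 20 rats and without Saline rats 4 and 9 (0.30, exact permutation test, adjusted p = 0.0338).

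Of 16 genes of connexins, pannexins and their partners, which include Gja1 and Gjb6, 3 were called lower and 1 higher. Among those called lower, Gjb1 (log2 fold change -0.55, SE 0.17, adjusted p = 0.0360) encodes an oligodendrocyte connexin and Panx2 (-0.31, SE 0.08, adjusted p = 0.0189) a pannexin of neurons. The gene called higher was Tjp1 (0.25, SE 0.07, adjusted p = 0.0230), whose product anchors connexins at the membrane. None of the 16 was called without Saline rats 4 and 9. Oligodendrocyte markers moved with these genes: all 12 had a negative log2 fold change (median -0.35), against 49.6% of all kept genes. Of these markers 1 was called lower (Cldn11, -0.46, adjusted p = 0.0175 by edgeR). The summed level of the oligodendrocyte markers was 2476 to 6288 RPM with LSD and 2503 to 8162 with saline. The part of oligodendrocytes in the connexin values was not tested.

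Aqp4 encodes the water channel of astrocyte endfeet. It ranged from 292 to 382 RPM with LSD (median 321) and from 229 to 382 with saline (median 284). Each of the 10 LSD-treated rats exceeded the saline median, and 6 controls were below every LSD-treated rat. The highest rats of both groups were at the same level, and Aqp4 was not called (log2 fold change 0.13, SE 0.09, adjusted p = 0.349 by edgeR). Kcnj10, the main potassium channel of astrocytes, was not called either (log2 fold change 0.11, adjusted p = 0.319). Of 18 kept genes of water and potassium handling at the endfoot, 2 were called higher and 3 lower. Dmd (0.36, SE 0.07, adjusted p = 0.00424) and Utrn (0.24, SE 0.06, adjusted p = 0.0166) encode dystrophin and utrophin, the scaffolds that hold Aqp4 at the membrane. Among those called lower were Dtnb, which encodes a dystrobrevin (-0.30, SE 0.07, adjusted p = 0.0111), and Hepacam, an astrocyte adhesion protein (-0.25, SE 0.07, adjusted p = 0.0176). Dtna, which encodes another dystrobrevin, had a positive value and was not called (0.13, SE 0.05, adjusted p = 0.105 by edgeR). The cells in which these genes differed were not tested. Without Saline rats 4 and 9, 2 of the 18 were called higher and 1 lower.

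Gfap encodes the intermediate filament of astrocytes. It spread more widely between rats than any other marker among the controls except Slc1a2, from 457 to 1099 RPM (median 720), against 488 to 819 with LSD (median 627). Saline rat 4 was above every LSD-treated rat and Saline rat 1 was below every one. Gfap was not called (log2 fold change -0.17, SE 0.12, adjusted p = 0.358 by edgeR). Vim, a further filament gene of reactive astrocytes, was at -0.12 (log2 fold change, SE 0.24, adjusted p = 0.776). In a list of 16 intermediate filament and linker genes, Macf1 (0.30, SE 0.09, adjusted p = 0.0245) and Dst (0.31, SE 0.10, adjusted p = 0.0323) were called higher, both of which encode large linkers between filaments and microtubules that neurons also express, and none was called lower by edgeR or DESeq2 (1 at an unadjusted p under 0.05). Neither was called without Saline rats 4 and 9. Of 34 kept genes of the reactive state, 1 was called by edgeR, Ptgs2 (0.43, SE 0.13, adjusted p = 0.0308), which encodes a prostaglandin synthase also expressed by cortical neurons. DESeq2 called 1 gene of this list higher and 1 lower. The median over the list was -0.02.

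S100b encodes a calcium-binding protein and Aldh1l1 a folate enzyme, and both are used as astrocyte markers with less dependence on reactivity than Gfap. S100b ranged from 754 to 1009 RPM with LSD (median 846) and from 853 to 1236 with saline (median 904). Of the LSD-treated rats, 5 were below every control, but the adjusted p was 0.145 by edgeR (log2 fold change -0.15, SE 0.07). Aldh1l1 ranged from 25.3 to 34.1 RPM with LSD (median 29.8) and from 26.6 to 37.8 with saline (median 30.0), so that the groups were nearly superimposed (-0.08, SE 0.07, adjusted p = 0.427). None of the 11 kept genes of the S100 family and its receptor was called by edgeR or DESeq2 (2 lower at an unadjusted p under 0.05), and 10 of them had a negative log2 fold change. In the list of 19 folate and glycine enzymes, Mthfd1l, a mitochondrial folate enzyme, was called higher (0.31, SE 0.08, adjusted p = 0.0118), and Gcsh (-0.24, SE 0.08, adjusted p = 0.0355) and Amt (-0.24, SE 0.08, adjusted p = 0.0458), both of the glycine cleavage system, lower. Without Saline rats 4 and 9 only the call in the higher direction was left in this list.

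**Figure D3:**
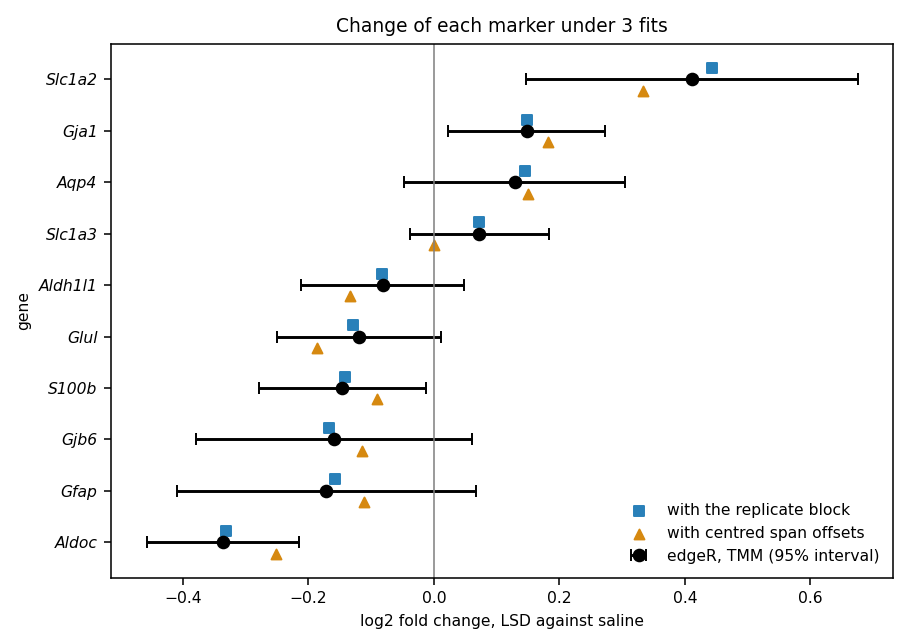
Log2 fold change of each marker (x axis, LSD against saline) with bars of the 95% interval from edgeR with TMM factors (circles), with the replicate number as a block (squares) and with offsets for gene span (triangles). Aldoc lies at -0.34 and Slc1a2 at 0.41. With the offsets Slc1a2 moves to 0.33 and Slc1a3 to near 0.

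A longer list of 49 further astrocyte genes gave 9 called lower and none higher by edgeR, against 8.54% and 6.48% of all kept genes. At an unadjusted p under 0.05 by edgeR 3 were higher, and DESeq2 called 1 higher. The median was -0.06 on the log2 scale, and 30 values were negative, against 49.6% of all kept genes. The genes with the smallest p-values were Ntsr2, a neurotensin receptor of astrocytes (log2 fold change -0.38, SE 0.08, adjusted p = 0.00794), Mt3, the brain metallothionein (-0.43, SE 0.10, adjusted p = 0.00854), Mfge8, a secreted phagocytosis factor (-0.22, SE 0.06, adjusted p = 0.0131), and Cldn10, a claudin (-0.22, SE 0.06, adjusted p = 0.0132). Hepacam, Cbs, Apoe, Btbd17 and Slc25a18 were the others. The count fell to 3 without Saline rats 4 and 9, was 6 with scaling by total counts, and ranged from 6 to 12 when 1 rat was left out. Over all kept genes the number lower fell as well, from 1418 to 555 without the 2 rats and to 858 with total counts. It ranged from 957 to 1907 when 1 rat was left out. Among 21 transcription factors of astrocyte fate, Sox2 alone was called by edgeR (-0.29, SE 0.07, adjusted p = 0.00992), a gene of neural progenitors that adult astrocytes keep. DESeq2 called 2 genes of this list higher besides 1 lower.

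Summed over the 10 markers, the level was 5372 to 6864 RPM with LSD (median 5982) and 6121 to 6981 with saline (median 6380), a sum to which Glul and Aldoc contribute most. Markers of the other cell types in the tissue were divided or mostly not called, but those of oligodendrocytes all leaned lower. All 12 oligodendrocyte markers had a negative log2 fold change (median -0.35), and 1 was called lower, Cldn11. At an unadjusted p under 0.05 by edgeR, 4 of them were lower and 0 higher. Of 16 neuron markers 2 were called higher, Map2 and Gad2, and 2 lower, Slc32a1 and Tubb3. Of 8 kept markers of oligodendrocyte precursors, Pcdh15 was called higher and Sox10 and Olig1 lower. Trem2 alone was called among 12 microglia markers (lower), Abcb1a (higher) and Kcnj8 (lower) among 14 endothelial and pericyte markers, and none among 8 meningeal and choroid plexus markers by edgeR or DESeq2 (0 at an unadjusted p under 0.05). Without Saline rats 4 and 9 the calls were 1 higher among neuron markers and 1 lower among oligodendrocyte markers. There was then 1 in each direction among precursor markers, and 0 among microglia and vascular markers.

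The markers did not vary from rat to rat as 1 group. After the group means were removed, Pearson's r between 2 markers over the 20 rats had a median of 0.22 over the 45 pairs, and 28 pairs were positive. These correlations are descriptions: the values of each rat share 1 library, its depth and its scaling. Slc1a3 and Gja1, whose promoters are shown above, had the highest value (r = 0.88, Spearman's rho = 0.86), with 0.94 among LSD-treated rats and 0.81 among controls. Slc1a3 with Aqp4 had r = 0.82 (rho = 0.86), Aqp4 with Gja1 0.73 (rho = 0.76) and Gfap with Aqp4 0.70 (rho = 0.72). Saline rat 10, for example, was the highest control for Slc1a3, Gja1, Gjb6 and Aqp4, and LSD rat 10 was the highest LSD-treated rat for the same 4 genes.

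Slc1a2 and Aldoc, the markers called between groups, stood outside this set, each with a median r of -0.09 with the other 9, as did Aldh1l1, which was not called (median 0.07). The most negative pair was Slc1a2 with S100b (r = -0.58, rho = -0.36), which was -0.12 among LSD-treated rats and -0.79 among controls. It rests on Saline rat 9, the control with the lowest Slc1a2 and the highest S100b, and without it r was -0.22. Aldoc with Aqp4 had r = -0.56 (rho = -0.55), -0.46 to -0.63 when 1 rat was left out. Gjb6 and Glul had r = 0.81 among LSD-treated rats and -0.02 among controls. Other pairs with Glul differed as well: 0.64 and -0.55 for Aqp4, 0.62 and -0.51 for Gfap, and 0.57 and -0.39 for Slc1a3. Glul with Aldh1l1 was alike in both groups (-0.29 and -0.30). These differences were not tested.

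**Figure D4:**
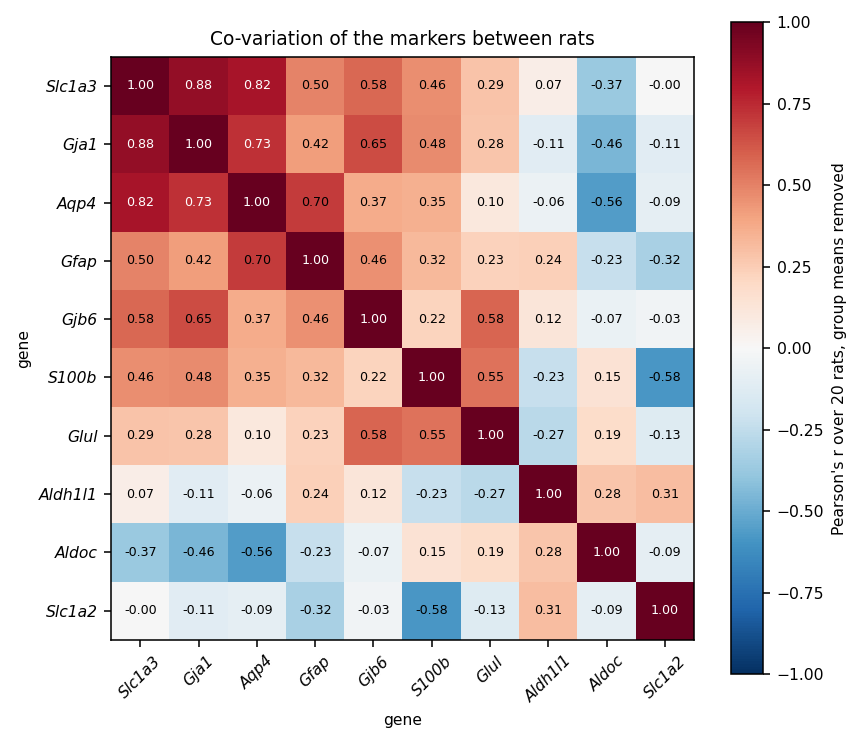
Pearson's r of log2(RPM + 1) between each pair of markers over 20 rats after the group means were removed (colour scale from -1 to 1, values printed in the cells). Slc1a3, Gja1, Aqp4 and Gfap form a block of positive values, with 0.88 for Slc1a3 and Gja1, and Slc1a2, Aldoc and Aldh1l1 lie outside it.

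For each marker, the 3 kept genes with the highest r were also found. For Slc1a2 these were Shc3 (r = 0.95), Ralgps1 (0.94) and Cmtm4 (0.93), of which Ralgps1 was called higher in LSD (log2 fold change 0.28, SE 0.09, adjusted p = 0.0399 by edgeR). For Aldoc they were Yipf3 (0.93), Alad (0.93) and Pcbp4 (0.91), and all 3 were called lower: Yipf3 by -0.28 (adjusted p = 0.00408), Alad by -0.26 (adjusted p = 0.0194) and Pcbp4 by -0.29. The calls of Ralgps1 (0.21, adjusted p = 0.0580) and Alad (-0.21, adjusted p = 0.0756) were lost without Saline rats 4 and 9. None of the genes nearest to Slc1a2 or Aldoc is in the marker lists. For Gja1 they were Rnd3 (0.94), Gcnt1 (0.92) and Pdpn (0.89), for Slc1a3 Itgb1 (0.90), Gja1 (0.88) and Pdpn (0.87), and for Aqp4 Gcnt1 (0.85), Msn (0.84) and Fam102b (0.84). Pdpn and Gcnt1 thus each stand next to 2 of the markers that varied together. The nearest genes were Krt71 (0.90), LOC100909675 (0.87) and Slc3a2 (0.83) for Gfap, Wnt5b (0.92), Serping1 (0.92) and Mk1 (0.92) for Gjb6, and Exosc2 (0.94), Rpl14 (0.91) and Sat2 (0.89) for S100b. For Aldh1l1 they were Zfp219 (0.85), Stk40 (0.84) and Prrt4 (0.83). Glul had the weakest neighbours, LOC100912227 (r = 0.80, rho = 0.54), Cd302 (0.77) and Phf5a (0.76).

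The markers differ in gene span, the distance from the start to the end of a gene, and levels of long and short genes differed between these libraries. The 2986 longest and the 2986 shortest genes were taken, and the markers among them were left out. In each rat an index was formed as the mean log2 deviation of the long genes minus that of the short genes. It was 0.026 to 0.139 with LSD (median 0.084) and -0.382 to 0.053 with saline (median -0.058). Over 14929 genes, the log2 fold change rose with span (Spearman's rho = 0.36). Because the index differed between the groups, removing the trend also removes any effect of LSD that follows span. Such an effect cannot be told apart here from a technical difference between the libraries. Slc1a2 spans 130337 bases, Slc1a3 75102, and Aldoc 3590. Saline rat 9, with the lowest index, had the lowest Slc1a2 (140 RPM) and the highest Aldoc (1792 RPM) of all 20 rats. With offsets that remove the trend with span, the log2 fold change of Slc1a2 was 0.33 and no longer passed the threshold (adjusted p = 0.0776 by edgeR), that of Aldoc was -0.25 and still did (adjusted p = 0.00968), and that of Slc1a3 was -0.000120 (adjusted p = 0.9996). Of the other genes named above as higher, Dmd and Ptgs2 also passed with the offsets, and Tjp1, Utrn, Macf1, Dst, Slc16a7, Mthfd1l, Map2, Gad2, Pcdh15, Abcb1a and Ralgps1 did not. Of those named as lower, Aldoa (log2 fold change -0.17, adjusted p = 0.0560), Slc38a7, Gjb1, Gcsh, Amt, Tubb3, Olig1, Apoe, Btbd17 and Slc25a18 did not. The further astrocyte list had 6 genes lower with the offsets against 9 without them, and all kept genes 1107 against 1418.

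**Figure D5:**
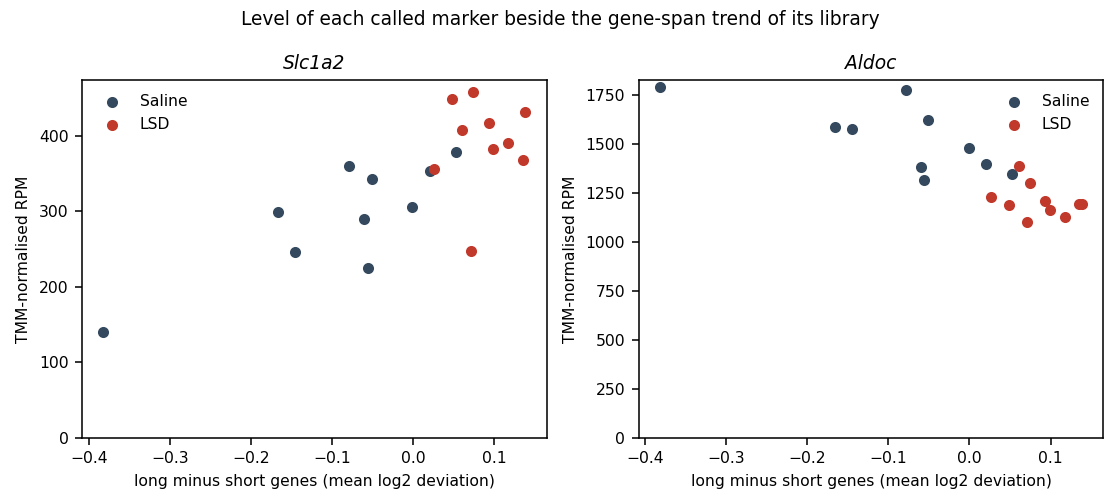
Normalised RPM (y axis, from 0) of Slc1a2 and Aldoc in each rat against the difference between long and short genes in the same library (x axis, mean log2 deviation). Each point is 1 rat, and Saline rat 9 lies farthest to the left at -0.382, with 140 RPM of Slc1a2 and 1792 RPM of Aldoc.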

How the data were processed

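Poly(A) RNA from the mPFC of 20 rats was sequenced with 1 library per rat, and groups were taken from the sample labels. The authors used TrimGalore for trimming, HISAT2 for alignment to rn6 and HTSeq-count for counting, and deposited raw read counts per gene. Versions, annotation and strand setting are not given in the sources used here, so overlapping and antisense genes cannot be told apart. The 5 entries without a name held 25.5% to 29.0% of the reads of a library and were left out. The spread between 10 rats per group sets the precision.

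Counts were tested with edgeR 4.0.16 in R 4.3.3 (quasi-likelihood F test, TMM factors) on genes with 5 or more reads in 10 or more rats, with Benjamini-Hochberg adjustment over all kept genes and a threshold of 0.05.  The test was tested on simulated data. Alternatives were median-ratio factors, total counts, 2 other filters, DESeq2 1.42.0, a replicate block, reads drawn down to 11098076, offsets for gene span, and 1 surrogate variable (sva 3.50.0), and each rat was left out in turn. Leaving out Saline rats 4 and 9, and the span offsets together with the block, were added after seeing the data. Span is the distance from start to end in GRCr8, found for 14929 of 16605 genes. The trend over 50 bins was smoothed over 5 bins and centred in each rat. Within-library ratios were compared with a pseudocount of 1 by exact permutation tests. Promoter windows came from RefSeq (GRCr8), where all 10 markers matched.

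The markers, the 17 gene lists and the tests were chosen with earlier results of these data known. Genes named are the markers, up to 4 genes with the smallest p-value past the threshold per list and direction, Aldoa, Slc1a1, Vim and Kcnj10, and the 3 genes most correlated with each marker. Cbs, Apoe, Btbd17, Slc25a18 and Dtna were named after their values were seen. Some genes that this rule names are not reported here.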

Additional observations from a re-analysis of the deposited data

Results flagged for a closer look

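In the 194 sets of 10 rats examined, 17 had a lowest or highest rat whose gap to its neighbour was too large a share of the whole range (Dixon's test, 95% critical value), and chance flags about 1 in 20 such sets. Among the markers, Slc1a2 was low in LSD rat 7, at 248 RPM against 356 in the next rat. Without this rat the log2 fold change of Slc1a2 was 0.47. Shc3, the gene closest to Slc1a2, was low in the same rat (35.9 RPM). LSD rat 1 was high for Aldoa (2073 RPM), Bsg (812 RPM) and the summed aldolase, glycogen and lactate list (6868 RPM).

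Saline rat 9 was low for the difference between long and short genes (-0.382), for Ralgps1 (14.8 RPM) and for Cmtm4 (19.1 RPM), and high for Exosc2 (16.7 RPM). Saline rat 10 was high for Itgb1 (108 RPM) and Mk1 (25.6 RPM), and Saline rat 4 for Zfp219 (48.0 RPM). LSD rat 3 was low for the summed connexins and pannexins (827 RPM) and high for the summed microglia markers (863 RPM). The remaining rats that stood apart were LSD rat 10 for Kcnj10 (101 RPM), LSD rat 8 for Mthfd1l (45.3 RPM) and LSD rat 9 for Olig1 (161 RPM).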

How the results depend on the processing

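Aldoc was called lower in all 11 alternatives, and Slc1a2 higher in 8 of them. The number of markers called higher was 0 with the span offsets and without Saline rats 4 and 9, 2 with 1 surrogate variable, where Gja1 was added (adjusted p = 0.0146 by edgeR), and 0 to 1 when 1 rat was left out. The number called lower was 2 with the replicate block, where S100b was added (adjusted p = 0.0411), and 2 with span offsets and the block together, where Glul was added (-0.20, adjusted p = 0.0403) and Gja1 was called as well while Slc1a2 was not. Over all kept genes, 858 were lower with total counts, 836 without a filter, 568 higher with span offsets, and 426 higher and 555 lower without Saline rats 4 and 9. The number higher was 663 to 1669 when 1 rat was left out, lowest without LSD rat 8. The ratio of Slc1a2 to Slc1a3 missed the threshold with the replicate block (0.37), span offsets (0.35), both together (0.35) and without Saline rats 4 and 9 (0.25), and ranged from 0.26 to 0.45 without 1 rat. The ratio of Aldoc to Aldoa missed it with the block (-0.091), span offsets (-0.082), both (-0.082) and without Saline rats 4 and 9 (-0.089), and ranged from -0.11 to -0.072. The ratio of Gja1 to Gjb6 passed in each (0.31 with the block). The sign of Slc1a3 turned with span offsets (-0.000120) and with the block added (-0.0000699), and that of Slc1a1 with total counts (0.037), no filter (0.0056), the block (0.0019) and without Saline rats 4 and 9 (0.0021), with -0.053 to 0.044 without 1 rat. The cause of these changes was not tested. The labels do not say that a number pairs the rats, and the main test did not pair them. Of 10 same-number pairs, 6 had an r over 0.1. The mean r was 0.145 for the same number and -0.0157 for different numbers, and 1 of 10 LSD-treated rats correlated best with its own number. With the block, 1355 of all kept genes were called higher and 1606 lower. These values do not settle whether rats of the same number share a source of variation. Of the other genes named, Amt was called in 5 of the 20 fits without 1 rat, Abcb1a in 8, Gad2, Ralgps1 and Slc25a18 in 9, Gjb1 in 10, Slc38a7 in 11, Gcsh and Apoe in 12, Btbd17 in 13, Dst, Slc16a7 and Ptgs2 in 15 and Olig1 in 17. The marker with the fewest reads was Aldh1l1, with 368 to 761 per rat.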
